A study of Mus musculus with 2 samples.

Results

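The genes described here are Mir10a, Mir10b, Mir196a-1, Mir196a-2 and Mir196b, the mir-10 and mir-196 microRNA genes that lie inside the Hox gene clusters of the mouse. They were taken by symbol, and are 5 of the 2202 miRNA genes in the tables. Short RNAs were sequenced (microRNA-seq) from total heart RNA of B6CASTF1/J males, an F1 hybrid of the B6 and CAST strains, at 36 days of age. The 2 libraries form 1 group, biological replicates 1 and 2 from males with different numbers, and no treatment or engineered allele is labelled. Both carry 1 donor record, so the spread between them may be technical. A free-text label gives the age in months instead of days. There is no second tissue, age or treatment, so the data give levels in the heart and a comparison of the libraries with each other.

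Hox genes encode transcription factors that give body regions their identity along the head-to-tail axis, and they stand in each cluster in the order of their paralog group numbers. Genes of low group number act further forward and genes of high number further back. Each miRNA is cut from a hairpin transcript and pairs with target mRNAs mainly through its seed, the bases near its start. In mouse, miR-196 is known to direct the cleavage of Hoxb8 mRNA, and in human cells miR-10b is known to repress HOXD10. In human endothelial cells, miR-10a is known to dampen inflammatory signalling.

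The mature sequences show how closely the genes are related, and which reads can be told apart. They are given 5′ to 3′ from RefSeq (build GRCm38.p6) for the arm from the 5′ side of the hairpin, with the seed, bases 2 to 8, in capitals.
mmu-miR-10a-5p: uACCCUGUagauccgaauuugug
mmu-miR-10b-5p: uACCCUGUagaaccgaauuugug
mmu-miR-196a-5p: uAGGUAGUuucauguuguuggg
mmu-miR-196b-5p: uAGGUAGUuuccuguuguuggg

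Within each pair the seed is identical and a single base differs. Counted from 1 at the 5′ end, miR-10a-5p and miR-10b-5p differ by U12A over 23 nt, and miR-196a-5p and miR-196b-5p by A12C over 22 nt. The seed of the mir-10 pair occurs in 2 mature mouse miRNAs of the RefSeq table and that of the mir-196 pair also in 2, so neither is shared outside its pair. The longest run that miR-10a-5p and miR-10b-5p have in common is 11 nt.

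The hairpins carry the rest of the difference, and decide where a read can be placed. They are shown with both mature arms in capitals for the mir-10 pair and for the Mir196a copies.
Mir10a: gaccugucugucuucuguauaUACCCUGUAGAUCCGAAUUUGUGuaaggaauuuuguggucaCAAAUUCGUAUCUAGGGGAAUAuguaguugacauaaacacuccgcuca
Mir10b: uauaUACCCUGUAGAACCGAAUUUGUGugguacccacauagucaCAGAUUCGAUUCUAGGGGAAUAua
Mir196a-1: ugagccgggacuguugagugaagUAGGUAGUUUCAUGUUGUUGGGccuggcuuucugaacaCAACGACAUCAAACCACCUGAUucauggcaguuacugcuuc
Mir196a-2: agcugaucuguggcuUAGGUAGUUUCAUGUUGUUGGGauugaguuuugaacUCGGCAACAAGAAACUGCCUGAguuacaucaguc

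Mir196a-1 and Mir196a-2 give the same miR-196a-5p, and their hairpins share an exact run of 22 nt, the whole mature miRNA. A full-length read of miR-196a-5p therefore fits 2 places equally well. The tables count reads that fit several places in a row of their own, but whether miR-196a-5p reads went there was not tested, since the counting settings are not given. The 3′ arms of the copies differ, so a read from there, or one reaching past the shared run, can be placed. Mir10a and Mir10b share at most 15 nt with each other, and Mir196b at most 12 nt with any of the other annotated hairpins. Full-length mature reads of these 3 genes can thus be told apart among annotated hairpins if matched exactly. Whether reads with a mismatch were kept apart is not known, since the settings are not given.

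The genes lie in all 4 Hox clusters, with positions on mm10. Mir10a is on the plus strand of chromosome 11 from 96317165 to 96317274, in Hoxb. It overlaps no other annotated gene and ends 992 nt before Hoxb4, with Hoxb5 11.0 kb upstream. Mir10b is on the plus strand of chromosome 2 from 74726070 to 74726137, in Hoxd. It is intronic in 2 of 3 annotated Hoxd4 transcripts and in 1 of 6 Hoxd3 transcripts. The mir-10 genes thus both adjoin the group 4 gene of their cluster.

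The mir-196 genes lie nearer the high-numbered end. Mir196b is in Hoxa on chromosome 6, minus strand, 52230081 to 52230165, 1.03 kb downstream of Hoxa10. It lies within Hoxa9, where it overlaps an exon of 2 of 5 transcripts, with no annotated UTR or coding sequence, and an intron of 1. Mir196a-2 is on the plus strand of chromosome 15 from 102973350 to 102973434, between Hoxc10 (1.46 kb upstream) and Hoxc9 (3.00 kb downstream), in an intron of 1 of 2 Hoxc5 transcripts. Mir196a-1 is on the plus strand of chromosome 11 from 96265164 to 96265265, 6.19 kb upstream of Hoxb9 and outside other annotated genes. Hoxb therefore holds both a mir-10 and a mir-196 gene.

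**Figure D1:**
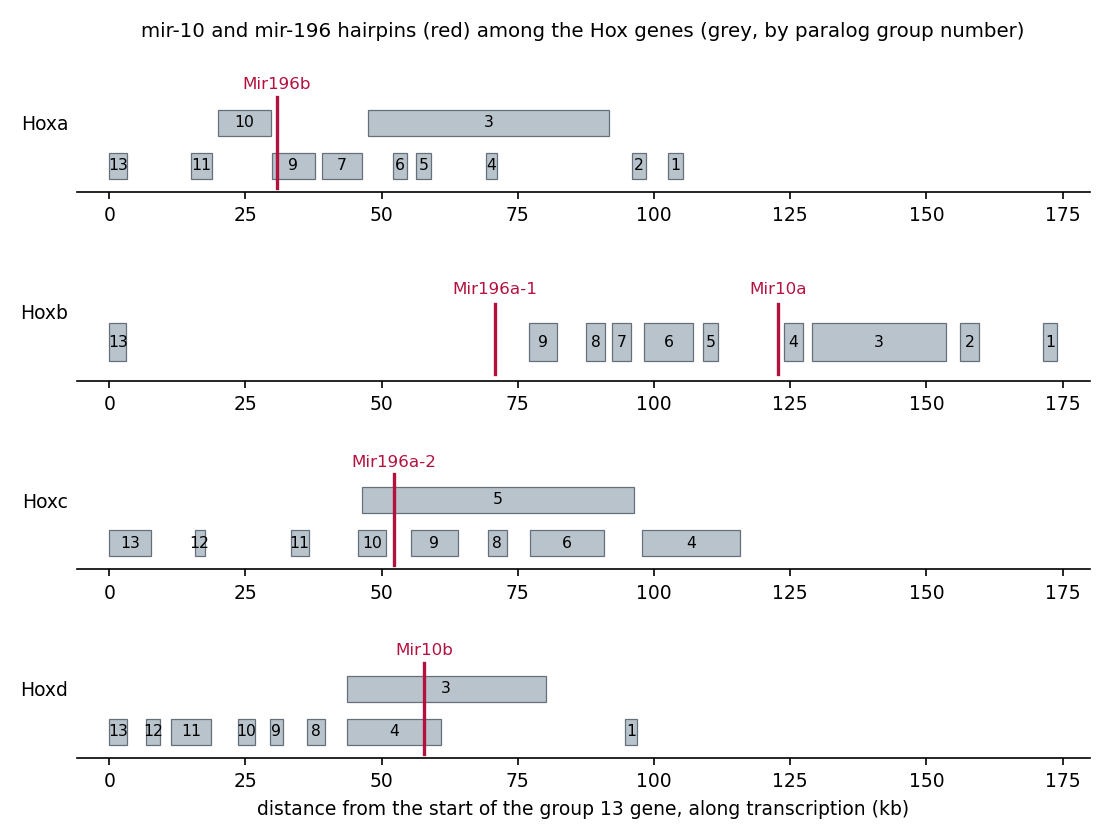
Maps of the Hoxa, Hoxb, Hoxc and Hoxd clusters, drawn to scale in kb from the start of the group 13 gene along the direction of transcription. Grey boxes are annotated Hox genes with their paralog group number, stacked where they overlap, and red lines are the 5 miRNA hairpins. Mir10a and Mir10b stand at group 4, and the 3 mir-196 genes between groups 9 and 13 or inside group 9.

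Sense-strand reads of miRNA genes numbered 1999362 in library 1 and 1862526 in library 2, and levels are counts per 1000000 (CPM) of these. Multimapping reads, which fit several places, made up 41.5% and 42.9% of each library and are in no gene count. The reads of each hairpin are summed, so its arms are not separated, and levels in heart RNA cannot tell fewer cells of a type from less RNA per cell. Of the cardiac muscle markers, Mir208a, carried by the alpha myosin gene, stood at 5198 ± 2553 CPM (SD, n = 2) and Mir499 at 2239 ± 1277, while each of the Mir1a and Mir133a copies, which share mature sequences, had at most 115 reads. Of 6 neuronal markers, which are copies of Mir9 and of Mir124a, 5 were at 0 in both libraries. Copies that share mature sequences can be counted too low, so these counts do not show that neuronal RNA is absent.

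The mir-10 pair was well detected in the heart, and Mir10a was the higher. Mir10a had 2753 reads in library 1 and 2369 in library 2, which is 1377 and 1272 CPM (exact 95% counting intervals 1326 to 1429 and 1221 to 1324). Its mean was 1324 ± 74.3 CPM (SD, n = 2), rank 60 of all miRNA genes. Mir10b had 1393 and 1243 reads, which is 697 and 667 CPM (660.6 to 734 and 631 to 706), with a mean of 682 ± 20.8 CPM and rank 79. The SD was 5.61% of the mean for Mir10a and 3.04% for Mir10b. The counting intervals of the libraries overlapped for Mir10b, while for Mir10a they did not, library 1 being the higher before scaling by TMM, which sets the typical gene equal, and the lower after it, and Mir10a was above Mir10b in both libraries.

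Of the mir-196 genes, Mir196b alone had more than 1 read. Mir196b had 228 reads in library 1 and 110 in library 2, or 114 CPM (99.7 to 130) and 59.1 CPM (48.5 to 71.2). Its mean was 86.5 ± 38.9 CPM (SD, n = 2) and its rank 153, and the SD was 44.9% of the mean. Library 1 was the higher, and the counting intervals of the libraries did not overlap.

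The Mir196a copies had almost no counted reads. Mir196a-2 had 1 read in library 1 and 0 in library 2, and Mir196a-1 had 0 in both. For a locus with unique sequence, a count of 0 would allow a level of up to 3 reads, 1.5 CPM in library 1 and 1.61 in library 2. For these copies that limit bears on reads that tell them apart, such as those of the 3′ arms, and not on miR-196a-5p, whose reads fit both copies. How such reads were counted is not given, so no level of miR-196a, and no order of miR-196a and miR-196b, is drawn here.

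**Figure D2:**
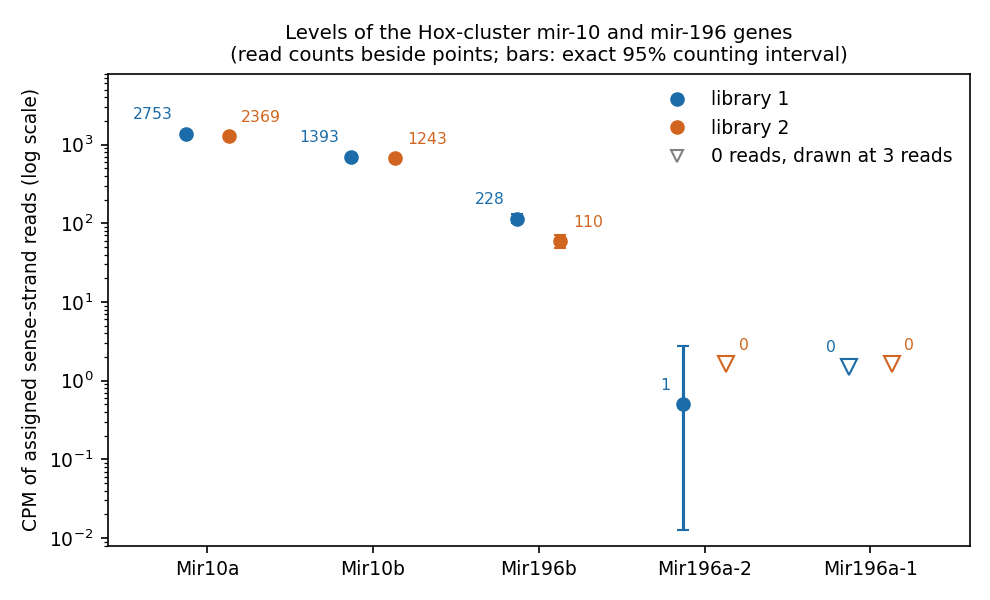
Level of each gene in library 1 (blue) and library 2 (orange), in CPM on a log scale, with exact 95% counting intervals as bars and read counts beside the points. Open triangles mark 0 reads, drawn at the level of 3 reads. Mir10a, Mir10b and Mir196b fall in that order in both libraries, and Mir196a-2 and Mir196a-1 have 1 read between them.

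At 10 CPM or more in both libraries, 3 of the 5 genes were detected, against 243 of all 2202 genes by the same rule. Summed, the 5 genes made up 0.219% of the sense-strand gene reads of library 1 (exact 95% counting interval 0.212% to 0.225%). In library 2 they made up 0.200% (0.193% to 0.206%), so the mean share was 0.209% ± 0.0134 (SD, n = 2). Among the reads of the 5 genes, Mir10a held 62.9% in library 1 and 63.6% in library 2, and Mir10b 31.8% and 33.4%. Mir196b held 5.21% and 2.96%. These intervals cover counting error only, since PCR reads without molecular identifiers are not independent molecules. All 5 genes had 0 reads on the opposite strand.

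**Figure D3:**
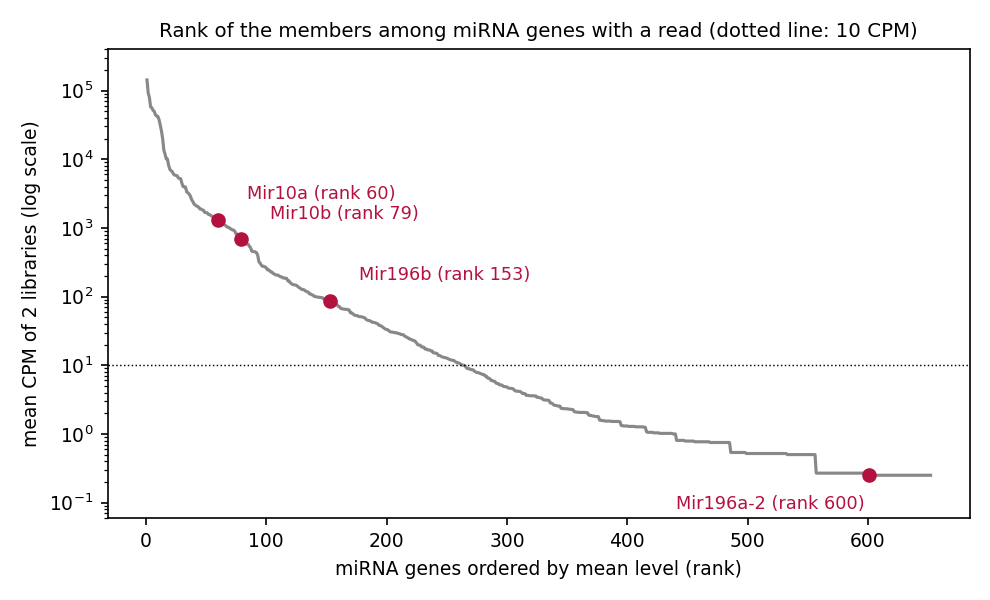
Mean CPM of the 2 libraries (log scale) for the 652 miRNA genes with a read, in order of level. Red points mark 4 of the 5 genes, Mir10a at rank 60, Mir10b at 79, Mir196b at 153 and Mir196a-2 among genes tied at 1 read in library 1 (rank 600), and Mir196a-1 had no read. The dotted line is 10 CPM.

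The ratio within the mir-10 pair was steady. It needs no scaling, because both genes are read in the same library. There were 1.98 Mir10a reads for each Mir10b read in library 1, with an exact 95% counting interval of 1.85 to 2.11, and 1.91 in library 2 (1.78 to 2.04). The libraries gave no detectable difference in this ratio (two-sided Fisher's exact test, p = 0.456, Benjamini-Hochberg adjusted over 3 pairs 0.456). The log2 ratio of Mir10b to Mir10a was -0.96 ± 0.0370 (SD, n = 2).

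Dividing by the length of the annotated hairpin gives a smaller excess of Mir10a. The annotated Mir10a hairpin has 110 nt and that of Mir10b 68 nt, although their 5′ mature miRNAs have equal lengths. Per nt of hairpin, Mir10a exceeded Mir10b 1.22-fold in library 1 and 1.18-fold in library 2. The order of the pair was the same on both scales.

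Mir196b did not keep a fixed ratio to the mir-10 pair. Library 1 held 12.1 Mir10a reads for each Mir196b read (10.5 to 13.9) and library 2 held 21.5 (17.8 to 26.3), which differed beyond counting error (Fisher's exact test, adjusted p = 1.23e-06 over 3 pairs). Against Mir10b the values were 6.11 (5.31 to 7.06) and 11.3 (9.29 to 13.9), with an adjusted p of 9.00e-07 in the same exact test. Mir196b was thus lower relative to both mir-10 genes in library 2. This test compares 2 libraries on read counts and says nothing about conditions.

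Across all genes, the libraries were compared by an exact two-sided conditional binomial test per gene, in the 344 genes with 10 or more reads summed. A gene was called at a Benjamini-Hochberg adjusted p under 0.05 and a difference of 2-fold or more. This rule called 0 of the 3 genes tested here, against 59 of all genes, 17.2% of those tested. Of the 59, 40 were higher in library 1 (11.6% of tested genes) and 19 in library 2 (5.52%), and with TMM scaling the split was 27 and 28. Of the 3 genes, 2 had an unadjusted p under 0.05, as did 56.4% of tested genes. With TMM and with DESeq2 scaling the rule also called 0 of the 3, against 16.0% of tested genes with either. Log2 ratios are of library 2 over library 1, with 0.5 added to each count.

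Mir196b came closest to the threshold, with a log2 ratio of -0.95 (adjusted p = 2.45e-08 in the exact binomial test), a CPM ratio of 1.93. With TMM scaling, which adds 0.19 to every log2 ratio, its ratio was -0.76 (adjusted p = 1.34e-05), so it was the higher in library 1 with both scalings. It would be called at 1.5-fold, as are 30.5% of tested genes, with 20.3% of tested genes called higher in library 1 like Mir196b. Of all 344 tested genes, 76.7% had a smaller difference than Mir196b. The share was 87.9% among the 141 genes with a mean level of 100 CPM or above, which are better covered than Mir196b itself.

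Mir10a had a log2 ratio of -0.11 (adjusted p = 0.0103, exact binomial test) and Mir10b of -0.06 (adjusted p = 0.388). With TMM scaling both turned sign, to 0.08 (adjusted p = 0.110) and 0.13 (adjusted p = 0.0487), so neither has a direction that holds. Scaled to totals, 19.9% of the 141 genes at 100 CPM or above differed less than Mir10a, and 14.2% less than Mir10b. The median size of the log2 ratio was 0.34 over those 141 genes and 0.46 over all 344.

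Some markers of other cells and tissues were also higher in library 1, like Mir196b. The skeletal muscle list, Mir206 and Mir133b, had 197 reads in library 1 and 10 in library 2, or 98.5 and 5.37 CPM. Nearly all were from Mir206 (194 and 9 reads), with 3 and 1 from Mir133b. The liver marker Mir122 had 237 and 25 reads. The fibroblast list, with 3 of its 4 genes detected and Mir199a-1 at 0, had 2484 and 1201 CPM, nearly all from Mir214 (4941 and 2217 reads). Its member Mir199b had 8 and 13 reads. Mir199a-1 and Mir199a-2 are copies of the same miRNA, so their counts can be too low. Mir21a, a fibroblast miRNA outside the list and named after its values were seen, was the higher in library 2, with 1776 and 6143 CPM. The kidney list had 63.5 and 66.6 CPM, and the epithelial list went the other way with 460 and 947 CPM. Mir429 went against its epithelial list, with 32 and 19 reads. Scaled to totals, the cardiac muscle (8556 and 6697 CPM), erythroid (2452 and 1970) and leukocyte (5357 and 4950) lists were higher in library 1. Within them, Mir499 and Mir150 were higher in library 2. The endothelial marker Mir126a was also higher there, with 48924 and 63819 CPM. Smooth muscle had 39517 and 38697 CPM. The part of these in the Mir196b difference was not tested.

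**Figure D4:**
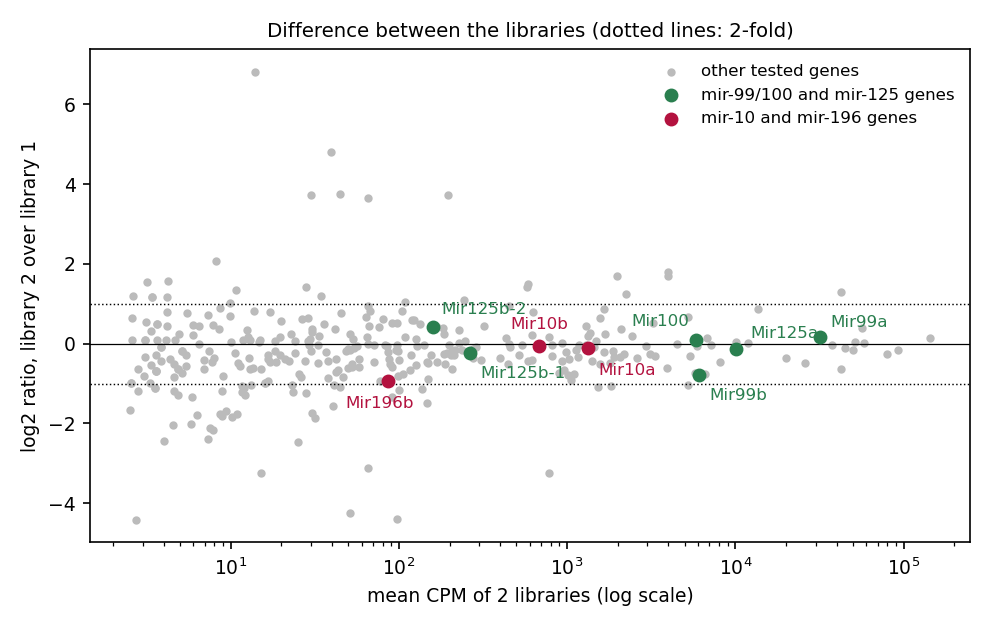
Log2 ratio of library 2 over library 1 against mean CPM (log scale) for the 344 tested genes. Red points are the mir-10 and mir-196 genes, green points the mir-99/100 and mir-125 genes and grey points all others, with dotted lines at 2-fold. Mir10a and Mir10b lie near 0, and Mir196b just inside the lower line at -0.95.

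The Hox clusters hold 2 other annotated miRNA genes. Mir615, in an intron of Hoxc5 on chromosome 15 (103014910 to 103015001), had 14 reads in library 1 and 2 in library 2, a mean of 4.04 ± 4.19 CPM (SD, n = 2). It was called higher in library 1 (log2 ratio -2.43, adjusted p = 0.0101 in the exact binomial test), a call that rests on 16 reads, and 11.6% of tested genes were called in that direction. Gm44463, between Hoxd9 and Hoxd8 on chromosome 2 (74701006 to 74701142, minus strand), had 0 reads in both. Mir10a and Mir10b thus gave most counted reads of the 7 miRNA genes in the Hox clusters.

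Outside the Hox clusters, mir-10 has relatives in the mir-99/100 and mir-125 genes, which belong to the mir-10 family by sequence. The sequences show how far the likeness goes, with seeds in capitals and, beside them, let-7a of the let-7 family, whose genes neighbour several of these relatives.
mmu-miR-99a-5p: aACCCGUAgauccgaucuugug
mmu-miR-100-5p: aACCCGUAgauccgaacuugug
mmu-miR-125a-5p: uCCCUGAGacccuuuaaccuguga
mmu-let-7a-5p: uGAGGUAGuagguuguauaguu

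MiR-10a-5p shares a run of 11 nt with miR-100-5p (bases 7 to 17) and of 10 nt with miR-99a-5p, but its seed is another. MiR-10b-5p, through its base at position 12, shares only 5 nt with either. MiR-99b-5p, whose run lengths were not computed, has the stretch GUAGAACCGA in common with miR-10b-5p. The shorter runs of miR-10b-5p thus hold for miR-99a-5p and miR-100-5p only. The seed of the mir-196 pair, AGGUAGU, is found in let-7a-5p at bases 3 to 9, shifted by 1 base from the let-7a seed. The miRNAs therefore differ in their seeds while holding common runs.

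The relatives outside the clusters were mostly more abundant. Mir99a had 59884 and 62239 reads, 31684 ± 2450 CPM (SD, n = 2), and Mir125a 10073 ± 626 CPM. Mir99b stood at 6078 ± 2312 and Mir100 at 5812 ± 245 CPM, all above Mir10a in both libraries. Mir125b-1 (264 ± 29.2 CPM) and Mir125b-2 (160 ± 32.5) were below Mir10b, but they give the same miR-125b-5p, so their counts can be too low. The 6 relatives made up 5.41% ± 0.0239 of sense-strand gene reads and the mir-10 pair 0.201% ± 0.00950 (SD, n = 2). Per 100 nt of hairpin, Mir100 was at 7265 CPM, Mir10a at 1204 and Mir10b at 1003, so the order held on that scale too.

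None of the 6 relatives was called between the libraries, against 17.2% of tested genes, and 6 genes are too few to set them apart from that share. Scaled to totals, all 6 passed the adjusted p without the fold criterion, as did 54.1% of tested genes, and 3 were higher in each library. TMM adds 0.19 to every log2 ratio, more than the size of that of Mir125a (-0.13), so the split depends on scaling. With totals, the median log2 ratio of the 6 was -0.02. It was -0.11 for the 3 tested genes of the Hox clusters' mir-10 and mir-196 set and -0.19 for all 344. Mir99b had the largest difference of the 6 with that scaling, at -0.80.

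**Figure D5:**
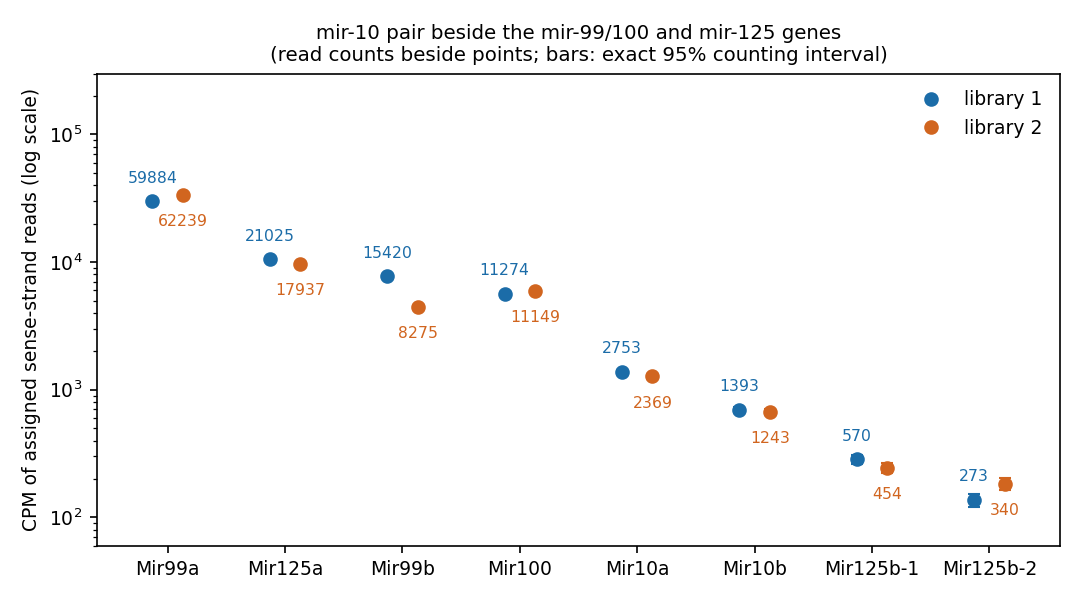
Levels of Mir10a and Mir10b beside the 6 mir-99/100 and mir-125 genes, in CPM on a log scale, for library 1 (blue) and library 2 (orange), with read counts beside the points and exact 95% counting intervals as bars. Mir99a, Mir125a, Mir99b and Mir100 lie above Mir10a in both libraries, and both Mir125b copies below Mir10b.

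By mean CPM over 2 libraries, the genes nearest in level to Mir10a were Mir145a just above (1333 ± 125 CPM, SD, n = 2) and Mir455 just below (1296 ± 24.4). Both Mir145a and Mir455 were under Mir10a in library 1 and over it in library 2, so the order of these genes is within the spread. Next to Mir10b stood Mirlet7a-1 (777 ± 67.1 CPM) above and Mir16-1 (629 ± 235) below, and the order against Mir16-1 turned between the libraries. Mirlet7a-1 and Mir16-1 have further copies, Mirlet7a-2 and Mir16-2, so their counts can be too low. Mir196b lay between Mir483 (87.1 ± 16.9 CPM) and Mir184 (86.0 ± 8.51), neither of which differed from it beyond the spread of the libraries. Among the 5 genes themselves, Mir10a, Mir10b and Mir196b kept their order in both libraries with intervals that did not overlap, while Mir196a-2 and Mir196a-1 could not be ordered.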

How the data were processed

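Short RNAs of 2 heart libraries were analysed, both in 1 group. Each deposited table holds raw counts of reads per miRNA gene, which the authors had not normalized, for both strands, the sense strand and the antisense strand. Per the text deposited beside them, the assembly was mm10 and the annotation M21. Aligner and counter were not given in the sources used here, nor were settings. The strand of a column was read from the values. The first 4 rows name no gene (unmapped, several places, no gene, ambiguous) and hold 63.5% and 61.9% of reads in the sense column. Totals and tests leave them out.

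All 2202 identifiers matched GENCODE M21, and RefSeq placed the 5 hairpins at the same positions. CPM were computed over sense counts, with Clopper-Pearson intervals, and the tests, run in Python 3.11.15 with scipy 1.17.1, are named beside their results. TMM factors came from edgeR 4.0.16 and size factors from DESeq2 1.42.0, as alternatives for scaling only. No spread between samples could be modelled, with 1 library on each side. The counts of the libraries differed beyond sampling noise (chi-square 92268 on 343 degrees of freedom). Genes named are the 5 members, other miRNA genes in Hox clusters, the mir-10 family and nearest neighbours in level. Members and lists were chosen with earlier results of these data known. Alternatives were strand, denominator, scaling, length, pseudocount, filters, thresholds and each replicate left out.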

Additional observations from a re-analysis of the deposited data

Results flagged for a closer look

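Reads that mapped to several places are a signal outside the gene counts, 2273922 in library 1 and 2098983 in library 2 over all loci. Which of them came from miR-196a-5p, whose copies cannot be told apart, was not tested. Outlying samples and group differences were not looked for, with 1 group of 2 libraries.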

How the results depend on the processing

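With both strands counted together, levels rose with the smaller total, to 1718 CPM for Mir10a and 885 for Mir10b, and the share of the 5 genes to 0.271%. With all reads as the denominator, Mir10a stood at 493, Mir10b at 254 and Mir196b at 32.05 per 1000000 and the share at 0.0780%, and without the most abundant gene the share was 0.244%. Per 100 nt of hairpin, Mir10a was at 1204 CPM and Mir10b at 1003, and the Mir10b to Mir10a ratio was 0.834 per nt instead of 0.515. Each of these shifts follows from the denominator or the length. Genes called between the libraries numbered 39 at 50 or more reads, 105 at 1.5-fold and 186 with no fold threshold, against 59. Of the 3 members tested, 1 (Mir196b) was called at 1.5-fold, as were 30.5% of tested genes, against 0 by the main rule. With no fold threshold, 2 (Mir196b and Mir10a) were called, as were 54.1% of tested genes. Which of the mir-10 pair passes without a fold threshold depends on the scaling. TMM moved the split of all calls from 40 higher in library 1 and 19 higher in library 2 to 27 and 28.

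With each replicate left out, Mir10a ranged from 1272 to 1377 CPM, Mir10b from 667 to 697, Mir196b from 59.1 to 114, Mir196a-2 from 0 to 0.5 and the share from 0.200% to 0.219%. The Mir10b to Mir10a ratio ranged from 0.506 to 0.525, Mir196a-1 stayed at 0, and 3 genes were detected either way. A comparison of libraries has no value without 1 of them. No paired analysis was possible because there is 1 group. Depth limits Mir615, at 16 reads. For Mir196a-2, at 1 read, it is also not known how reads of miR-196a-5p, which fit both copies, were counted.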
